A study of Mus musculus with 4 samples.

Results

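Transcripts of 35 genes that build and polarise epithelial sheets were measured by RNA-seq in mouse otic cells purified by flow sorting from otocysts, the epithelial vesicles that become the inner ear. The genes were taken by name, and all 35 were found among the 52636 gene identifiers of the count tables. They comprise 5 cadherins, 8 genes of the tight junction, 6 of the desmosome, 7 for polarity and membrane sorting, 3 simple keratins, 2 epithelial splicing factors and 4 for surface adhesion and its proteases. The libraries were labelled by genotype as Control (2 libraries) and Brg1cKO (2 libraries), the latter for a conditional knockout of Brg1, a chromatin remodelling ATPase encoded by Smarca4. Each library came from 3000 cells and was made by random priming with a kit that marks strand. The sources used here do not give the Cre line, the deleted exons, the strain or the embryonic age. Nor is it given whether the replicates came from separate litters or sorts, so p-values measure only a spread between libraries that may be technical.

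An epithelial cell is tied to its neighbours by several kinds of junction. Cadherins join cells at the adherens junction through their outer domains, claudins and occludin seal the tight junction near the apical surface, and desmosomes anchor keratin filaments at the membrane. The Crumbs and Par complexes mark the apical side, and ESRP proteins set the epithelial splice forms of many transcripts. The otic vesicle is a polarised epithelium of this kind.

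Gene reads numbered 15357265 and 19132360 in the control libraries and 29361382 and 25875555 in the Brg1cKO libraries, so the latter were the more deeply read. Values per library are TMM-scaled CPM, which are read counts relative to the scaled library size, and a fold change is that of Brg1cKO over control. Smarca4 stood at 816 and 815 CPM among controls against 891 and 848 CPM among Brg1cKO libraries. That count also takes in reads outside any deleted exon, so it checks little, and the direction of each difference below rests on the labels. The labelled tissue was checked on 12 markers of otic epithelium, which were read in both groups but summed to 1306 and 1527 CPM among controls against 184 and 199.7 CPM among Brg1cKO libraries. Oc90, a protein of the otoconial matrix, made up the most of this, at 782 and 732 CPM against 44.6 and 49.1 CPM. Of the 12 markers, 10 were lower without overlap, where 17.8% of all tested genes were. In bulk RNA, fewer cells of a type and less RNA per cell cannot be told apart, which holds for each value below.

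The junction genes were mostly lower in the Brg1cKO libraries, but none of the 35 passed the test over all genes. By edgeR, 5 of 16557 tested genes (0.0302%) were called at an adjusted p under 0.05, and 0 of the 35 were among them. The lowest adjusted p was 0.0842, for Epcam. At an unadjusted p under 0.05, 12 of the 35 were lower, against 4.80% of all tested genes, and 1 was higher, against 7.66%. Both Brg1cKO libraries lay under both controls for 20 of the 35, where 17.8% of all tested genes did so. Both lay above the controls for 2, Dsp and Crb2, where 26.3% of all tested genes did so. The remaining 13 overlapped. The median log2 fold change of the 35 was -0.78 (quartiles -1.50 and -0.06), beside 0.03 over all tested genes (quartiles -0.53 and 0.64). Because the 35 were chosen with earlier results of these data known, these shares and this median are descriptions. The values over all tested genes were not matched to the level of the 35. DESeq2, which called 6.30% of tested genes lower and 8.33% higher, called 14 of the 35 lower and 1 higher. Summed over the 35 genes, the level was 2490 and 2845 CPM among controls against 1850 and 1785 CPM among Brg1cKO libraries.

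Markers of other cells also differed between the groups. The 12 white blood cell markers summed to 374 and 431 CPM among controls against 1717 and 1603 CPM among Brg1cKO libraries, with 11 of the 12 higher without overlap. The 8 heart muscle markers, all higher without overlap, summed to 186 and 118 CPM against 818 and 795 CPM. The 10 endothelial markers were high in both groups (2860 and 2719 against 3231 and 3227 CPM), as were the 11 of head mesenchyme (3848 and 4179 against 3013 and 3096 CPM). A sort from this region could also hold other epithelia. The 7 surface ectoderm and epidermis markers summed to 51.3 and 24.3 against 86.9 and 73.6 CPM. Tfap2b (2.53 and 1.33 against 22.9 and 25.1 CPM) and Wnt6 (17.5 and 3.82 against 24.6 and 24.6 CPM) were higher without overlap. Trp63 (15.5 and 6.58 against 21.35 and 12.4 CPM) overlapped. Krt5 and Krt14, keratins of stratified epidermis named outside the rule for genes to name, stood at 0 in both controls. Both were at most 0.0683 CPM in the Brg1cKO libraries. The 8 pharyngeal endoderm markers summed to 96.9 and 118 against 99.5 and 96.2 CPM. Of these 2 lists, 0 and 2 markers were lower without overlap and 2 and 2 higher. Of the endothelial and mesenchymal lists 2 and 6 were lower and 4 and 5 higher. The shares over all tested genes were 17.8% lower and 26.3% higher. The 11 neuroblast and neuron markers, all lower without overlap, summed to 1367 and 1379 against 458 and 406 CPM. The 10 markers of neural tube and neural crest summed to 169 and 179 against 119 and 114 CPM, with 1 lower and 4 higher. Sox10, the most abundant of this list, was the lower marker (116 and 166 against 57.0 and 59.1 CPM). Higher were Tfap2b, also listed for surface ectoderm, and Sox1, Pax3 and Olig3. These last 3 had 0 reads in both controls and at most 8.95 CPM in the Brg1cKO libraries. The sum thus follows Sox10 and hides the markers that were higher. The part of these cells in the values of the junction genes was not tested.

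Measures of the libraries also separated by genotype. Reads in genes made up 48.2% and 49.3% of the control libraries against 64.0% and 63.7% of the Brg1cKO libraries, and reads not aligned 20.9% and 19.1% against 9.54% and 9.41%. At least 1 read was counted for 17266 and 17086 genes against 20859 and 20902 genes. When all libraries were thinned to 15357265 gene reads, 0 of the 35 were called by edgeR (lowest adjusted p = 0.0829) and 21 were lower without overlap, beside 18.6% of the genes tested there. The part of the other measures in the values of the junction genes was not tested.

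**Figure D1:**
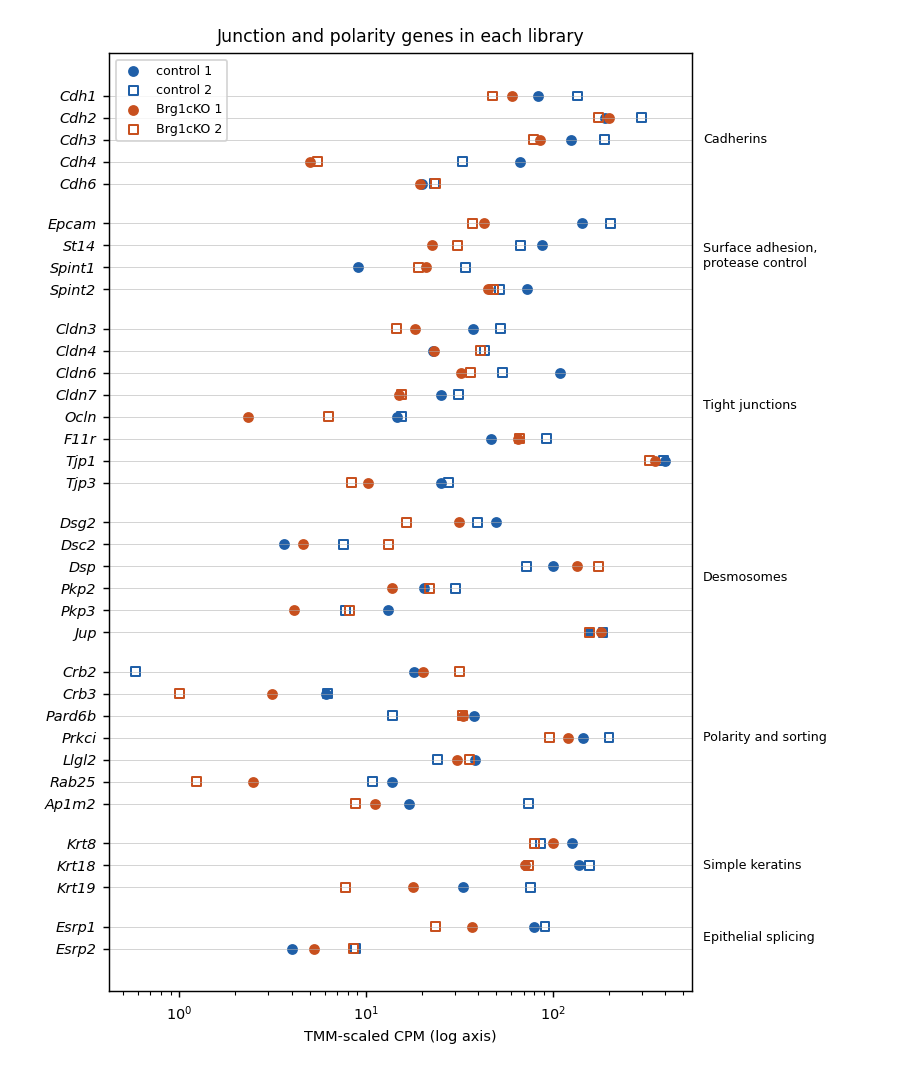
TMM-scaled CPM on a log axis for each of the 35 genes in each of the 4 libraries, by role. Blue marks are controls and orange marks Brg1cKO libraries, with circles for replicate 1 and squares for replicate 2. Orange lies left of blue for 20 genes, among them Epcam and Cdh4, and right of it for Dsp and Crb2.

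Promoter sequence from RefSeq (GRCm38.p6) was matched by symbol for 22 of the 35 genes. The 4 of these with the smallest p are shown. Their libraries did not overlap between the groups, and 3 were lower while Dsp was higher. Each run is on the plus strand, 5′ to 3′, and ends at the base before the annotated gene, at chr17:87635729-87635978 for Epcam, chr15:102027966-102028179 for Krt18, chr13:38151044-38151293 for Dsp and chr5:134985964-134986213 for Cldn3. Capitals mark CAGGTG or its reverse complement CACCTG, the E-box that SNAI and ZEB repressors bind, and GGGCGG or CCGCCC, the GC box of SP and KLF factors.
Epcam: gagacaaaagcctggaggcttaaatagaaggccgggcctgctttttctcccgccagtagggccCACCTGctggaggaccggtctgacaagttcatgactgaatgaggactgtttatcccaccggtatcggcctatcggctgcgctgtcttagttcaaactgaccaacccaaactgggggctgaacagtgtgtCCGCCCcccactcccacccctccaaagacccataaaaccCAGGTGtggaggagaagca
Krt18: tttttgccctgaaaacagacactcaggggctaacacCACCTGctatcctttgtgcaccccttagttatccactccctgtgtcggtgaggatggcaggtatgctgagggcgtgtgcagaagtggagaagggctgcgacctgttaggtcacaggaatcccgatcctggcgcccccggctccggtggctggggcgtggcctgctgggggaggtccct
Dsp: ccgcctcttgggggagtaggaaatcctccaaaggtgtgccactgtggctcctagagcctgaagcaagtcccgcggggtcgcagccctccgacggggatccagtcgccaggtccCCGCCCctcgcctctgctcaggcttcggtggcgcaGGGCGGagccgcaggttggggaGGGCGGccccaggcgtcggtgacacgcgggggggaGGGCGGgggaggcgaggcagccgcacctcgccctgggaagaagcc
Cldn3: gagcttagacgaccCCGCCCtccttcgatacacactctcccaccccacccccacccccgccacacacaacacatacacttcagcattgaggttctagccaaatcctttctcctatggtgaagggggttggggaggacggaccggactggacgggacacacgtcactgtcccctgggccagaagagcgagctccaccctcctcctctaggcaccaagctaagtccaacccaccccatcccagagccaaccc

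The E-box stood within 250 bases before a start of 14 of the 22 genes (63.6%), whereas 18.7% of the 11403 tested genes with a promoter in the table had it. Epcam held 2 such matches, at -187 and -19 from its start, and Krt18 held 1, at -214 from its RefSeq start, which lies inside the gene as GENCODE annotates it. The median GC content was 61.4% for the windows of the 22 genes and 59.6% for those of the tested genes. Of the 14 genes with the E-box, 10 were lower without overlap and 0 higher. Of the 8 without it, 3 were lower and 2 higher, and the difference was not tested. Over all tested genes, 17.8% were lower without overlap and 26.3% higher. These shares were not computed among the tested genes with the E-box, and members without a window are not in the split. The GC box was found in 17 of the 22 genes (77.3%) and in 62.7% of the tested genes, with 4 matches before Dsp. Searched on both strands as well, the Grainyhead-like motif AACCGGTT (0.246% of tested genes) and the TATA box TATAAA (8.12%) matched in 0 of the 22. The matches printed in capitals do not overlap each other, and a match of letters in a short window shows no binding. The windows of Cdh1, Cdh2, Cdh3, Cdh4, St14, Dsg2, Dsc2, Pkp2, Pkp3, Llgl2, Krt19, Esrp1 and Esrp2 were not analysed here.

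Epcam, an adhesion molecule widely used to mark epithelial cells, had the smallest p of the 35. It stood at 144 and 205 CPM among controls against 42.8 and 37.1 CPM among Brg1cKO libraries. Both Brg1cKO values lay far under the lower control, and the mean of the Brg1cKO libraries was 22.9% of the control mean. On the log2 scale the fold change was -2.13 ± 0.293 (SE), and its 95% interval ran between -2.82 and -1.44 (adjusted p = 0.0842, edgeR). DESeq2 called Epcam (adjusted p = 4.71e-15). The gene (ENSMUSG00000045394) lies on chromosome 17 from 87635979 to 87651129 in mm10.

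The protease matriptase, St14, which acts at epithelial surfaces, also had both Brg1cKO libraries under both controls. It stood at 88.0 and 67.5 CPM among controls against 22.7 and 30.9 CPM among Brg1cKO libraries, with a log2 fold change of -1.54 ± 0.393 (adjusted p = 0.296, edgeR). Its 2 membrane inhibitors differed less between the groups. Spint2 stood at 73.4 and 51.9 against 45.0 and 48.4 CPM, lower without overlap but by a margin smaller than the gap between the controls. Spint1 stood at 9.03 and 34.3 against 21.1 and 19.2 CPM, so that both Brg1cKO libraries lay between the controls. Reads per kilobase of Spint1 relative to those of St14 were 0.283 and 1.40 among controls against 2.56 and 1.71 among Brg1cKO libraries.

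Among the cadherins, the 3 that were lower without overlap were Cdh1, Cdh3 and Cdh4, while Cdh2 and Cdh6 overlapped. Of all tested genes, 17.8% were lower without overlap. Cdh1 encodes E-cadherin, the classical cadherin of epithelia, and stood at 83.6 and 136 CPM among controls against 60.3 and 47.8 CPM among Brg1cKO libraries. Cdh3, P-cadherin, stood at 125 and 189 against 86.1 and 79.4 CPM. These neighbours on chromosome 8, with 46.1 kb between them, had log2 fold changes of -1.03 ± 0.350 and -0.93 ± 0.278 (adjusted p = 0.368 and 0.365, edgeR). Their ratio per kilobase, Cdh3 over Cdh1, was 1.57 and 1.45 among controls against 1.49 and 1.73 among Brg1cKO libraries, and the groups overlapped in it.

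Cdh4, the retinal cadherin of neural and some epithelial tissues, had the largest fold change of the 35. It stood at 67.2 and 32.8 CPM among controls against 4.99 and 5.48 CPM among Brg1cKO libraries. The Brg1cKO mean was 10.5% of the control mean, although the controls themselves differed by 2.05 times. The log2 fold change was -3.25 ± 0.619 with a 95% interval from -4.71 to -1.80 (adjusted p = 0.158, edgeR). Cdh4 (ENSMUSG00000000305) lies on chromosome 2 from 179442431 to 179899373.

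N-cadherin, Cdh2, which neural, mesenchymal and heart cells also make, stood at 190.0 and 301 CPM among controls against 202 and 177 CPM among Brg1cKO libraries. The Brg1cKO values thus sat around the lower control (log2 fold change -0.37, 95% interval -0.96 to 0.21). Cdh6 stood at 20.01 and 23.4 against 19.6 and 23.5 CPM, with a log2 fold change of -0.01 (0.03 with upper quartile scaling) and an interval from -1.39 to 1.37 that leaves room for a change of more than 2-fold in either direction. Reads per kilobase of Cdh1 relative to Cdh2 were 0.776 and 0.799 among controls against 0.527 and 0.475 among Brg1cKO libraries, a ratio that needs no scaling between libraries. The groups did not overlap in it, but Cdh1 alone was already lower without overlap.

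**Figure D2:**
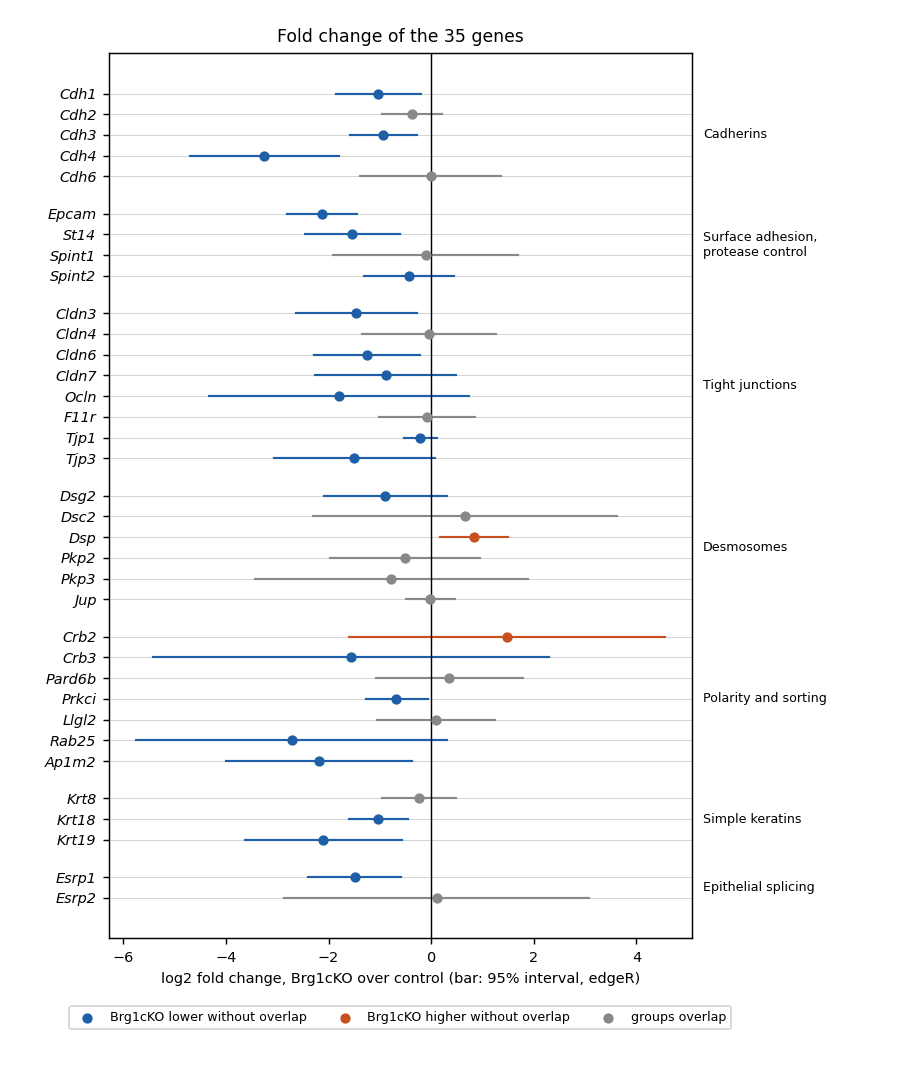
Log2 fold change of each gene, Brg1cKO over control, with its 95% interval from edgeR. Colour shows whether the 2 Brg1cKO libraries lay below (20 genes), above (2 genes) or among (13 genes) the controls. Intervals of 12 genes lie wholly below 0 and that of Dsp wholly above it, but none of the 35 passed after adjustment over all genes.

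In the reported fit all 8 tight junction genes had negative log2 fold changes, and 6 were lower without overlap, beside 17.8% of all tested genes. The sign did not hold in other settings for the 2 that overlapped. Cldn4 was at 0.00 with upper quartile scaling and ranged from -0.50 to 0.48 with 1 library left out, and F11r was at 0.00 with the replicate number as a block and ranged from -0.48 to 0.47 with 1 library left out. Claudins form the paracellular seal. Cldn6, a claudin of embryonic epithelia, stood at 109.8 and 53.7 CPM among controls against 32.4 and 36.5 CPM among Brg1cKO libraries. Cldn3 stood at 37.6 and 52.6 against 18.3 and 14.5 CPM, and Cldn7 at 25.1 and 31.4 against 15.1 and 15.4 CPM. Log2 fold changes were -1.25 ± 0.438 for Cldn6, -1.46 ± 0.501 for Cldn3 and -0.89 ± 0.587 for Cldn7 (adjusted p = 0.368, 0.368 and 0.659, edgeR).

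Cldn4 did not share this pattern. It stood at 22.9 and 43.4 CPM among controls against 23.3 and 41.2 CPM among Brg1cKO libraries, nearly the same 2 values in each group, with an interval of the log2 fold change from -1.34 to 1.26. Cldn4 lies 39.3 kb from Cldn3 on chromosome 5. Per kilobase, Cldn4 over Cldn3 was 0.422 and 0.571 among controls against 0.879 and 1.96 among Brg1cKO libraries, without overlap. Cldn6 over Cldn3 was 2.135 and 0.746 among controls against 1.29 and 1.84 among Brg1cKO libraries, and overlapped.

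Occludin, Ocln, a membrane protein of the same seal, stood at 14.7 and 15.5 CPM among controls against 2.32 and 6.33 CPM among Brg1cKO libraries (log2 fold change -1.80 ± 1.08, adjusted p = 0.610, edgeR). F11r, the junctional adhesion molecule A that endothelial and blood cells also carry, stood at 47.0 and 92.6 against 65.7 and 66.7 CPM, between the controls. Both scaffold proteins were lower without overlap. Tjp3, whose expression is mostly epithelial, stood at 25.1 and 27.6 against 10.3 and 8.37 CPM, with a log2 fold change of -1.50 ± 0.668. Tjp1, the scaffold ZO-1 of many cell types, stood at 401 and 392 against 356 and 332 CPM, with a fold change of -0.21 ± 0.137 on the log2 scale. Tjp1 had the highest CPM of the 35 genes in each library and the smallest SE.

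Of the 6 desmosome genes, 1 was lower without overlap (16.7%, beside 17.8% of all tested genes), 1 was higher (beside 26.3%) and 4 overlapped. Desmoplakin, Dsp, which links the desmosome to keratin and in heart muscle to desmin, stood at 100.8 and 72.2 CPM among controls against 134 and 175 CPM among Brg1cKO libraries. Both Brg1cKO libraries were above both controls, and the log2 fold change was 0.84 ± 0.279 with an interval from 0.18 to 1.50 (adjusted p = 0.368, edgeR; 0.0216 with DESeq2). The heart muscle markers, summing to 186 and 118 against 818 and 795 CPM, were also higher there, and their part in the level of Dsp was not tested. Dsp (ENSMUSG00000054889) lies on chromosome 13 from 38151294 to 38198577.

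Plakoglobin, Jup, shared by desmosomes and adherens junctions, stood at 157 and 186 CPM among controls against 181 and 158 CPM among Brg1cKO libraries. Its log2 fold change of -0.02 (0.02 with upper quartile scaling) had an interval from -0.50 to 0.46, among the narrower ones. Dsg2, a desmosomal cadherin also found in heart, stood at 50.02 and 39.7 against 31.6 and 16.5 CPM, lower without overlap (adjusted p = 0.580, edgeR). Its partner cadherin Dsc2 was scarcer, at 3.64 and 7.59 against 4.61 and 13.2 CPM, and the plakophilins Pkp2 (20.4 and 30.4 against 13.8 and 21.8 CPM) and Pkp3 (13.2 and 7.80 against 4.10 and 8.14 CPM) overlapped between the groups. Per kilobase, Jup over Epcam was 0.372 and 0.310 among controls against 1.44 and 1.45 among Brg1cKO libraries.

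Of the polarity and sorting genes, 4 of 7 were lower without overlap (beside 17.8% of all tested genes), 1 was higher (beside 26.3%) and 2 overlapped. Prkci, the atypical protein kinase C of the Par complex, stood at 146 and 201 CPM among controls against 121 and 96.1 CPM among Brg1cKO libraries (log2 fold change -0.68 ± 0.257, adjusted p = 0.368, edgeR). Its partner Pard6b stood at 37.8 and 13.9 against 32.9 and 33.0 CPM, within the range of the controls. Llgl2, a basolateral polarity protein, also overlapped, at 38.4 and 24.1 against 30.8 and 35.7 CPM. The 2 Crumbs genes differed in sign. Crb3, the epithelial form, stood at 6.11 and 6.21 against 3.14 and 1.003 CPM. Crb2, the form of neural and other early epithelia, stood at 18.1 and 0.584 against 20.2 and 31.6 CPM, and its fold change rests on control replicate 2, where only 11 reads were counted. Without that library the log2 fold change of Crb2 was 0.50, and without control replicate 1 it was 5.46.

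The remaining 2 of this group carry membrane cargo in epithelial cells. Rab25, a small GTPase of apical recycling, stood at 13.8 and 10.9 CPM among controls against 2.49 and 1.23 CPM among Brg1cKO libraries, where 73 and 32 reads were counted. The log2 fold change of -2.72 ± 1.29 had a wide interval, from -5.76 to 0.31. Ap1m2, the epithelial subunit of the basolateral sorting adaptor AP-1B, stood at 17.0 and 74.1 against 11.2 and 8.83 CPM. Its controls differed by 4.37 times, and its log2 fold change of -2.19 ± 0.771 was -0.78 with control replicate 2 left out and -2.88 with control replicate 1 left out.

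Krt8 and Krt18 encode the paired keratins of simple epithelia and are also read in other embryonic cells. Krt18 stood at 139 and 158 CPM among controls against 70.9 and 74.6 CPM among Brg1cKO libraries, with replicates close in both groups. Its log2 fold change was -1.03 ± 0.245, with an interval from -1.61 to -0.46 (adjusted p = 0.264, edgeR). Krt8 stood at 127 and 86.4 against 100.4 and 80.0 CPM and overlapped (log2 fold change -0.24 ± 0.305). The 2 genes lie 23.7 kb apart on chromosome 15. Per kilobase, Krt8 over Krt18 was 0.670 and 0.401 among controls against 1.04 and 0.787 among Brg1cKO libraries. Krt19, a further simple keratin, stood at 33.0 and 76.4 against 17.8 and 7.79 CPM, with a log2 fold change of -2.10 ± 0.648 (adjusted p = 0.368, edgeR).

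The 2 splicing factors differed in level and in fold change. Esrp1 stood at 80.0 and 91.1 CPM among controls against 37.1 and 23.7 CPM among Brg1cKO libraries. The groups did not overlap, and the log2 fold change was -1.49 ± 0.386 with an interval from -2.40 to -0.58 (adjusted p = 0.307, edgeR). Esrp2 was scarce, at 4.03 and 8.81 against 5.26 and 8.56 CPM, and its interval from -2.87 to 3.08 allows large changes either way. Esrp2 over Esrp1 per kilobase was 0.0732 and 0.141 among controls against 0.206 and 0.525 among Brg1cKO libraries. Esrp2 shares 219 exonic bases with Nfatc3 on the opposite strand. A count that ignored strand could not tell reads of these genes apart there, and the strand setting is not given. Smaller overlaps, of 14 to 127 bases with genes on the other strand that had reads, concern Cldn3, Tjp3, Crb2, Crb3 and Esrp1, and Dsg2 shares 330 bases with a scarce antisense transcript.

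Between genes, levels can be compared per length only. In mean CPM per kilobase of exon, the controls were led by Krt18 (104), Epcam (79.5), Krt8 (54.6), Tjp1 (50.8) and Cldn6 (47.5). In the Brg1cKO libraries the order was Krt18 (50.6), Krt8 (46.1), Tjp1 (44.0), Jup (26.3) and F11r (24.9), with Epcam at 18.2 in place 10. Neighbours in these orders often overlapped in their library values. In the controls Krt18 lay above Epcam and Epcam above Krt8 in both libraries, while Krt8 (65.0 and 44.1), Tjp1 (51.4 and 50.1) and Cldn6 (63.8 and 31.2) overlapped one another. In the Brg1cKO libraries Krt18 (49.4 and 51.9) overlapped Krt8 (51.3 and 40.9), Krt8 overlapped Tjp1 (45.6 and 42.5), and Jup (28.1 and 24.6) overlapped F11r (24.66 and 25.04). At the low end, Dsc2 (1.06) was the scarcest per kilobase in the controls and Cdh4 (0.721) in the Brg1cKO libraries.

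Replicates agreed less in the controls. With 0.5 CPM added to each value, log2 ratios of replicate 1 to replicate 2 had an SD of 1.06 over the 35 genes in the controls and 0.605 in the Brg1cKO libraries, beside 1.65 and 0.901 over all tested genes. The controls differed most in Crb2, Ap1m2 and Spint1. The Brg1cKO libraries were also the more deeply read, and the part of depth in this was not tested. Without control replicate 1 the median log2 fold change of the 35 was -0.76, and without control replicate 2 it was -0.65. Over all genes tested there, the median was 0.29 in both. Without Brg1cKO replicate 1 the median of the 35 was -0.84, and without Brg1cKO replicate 2 it was -0.86, beside 0 over all genes tested. In such a fit the lone library is assumed to vary like those of the other group.

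**Figure D3:**
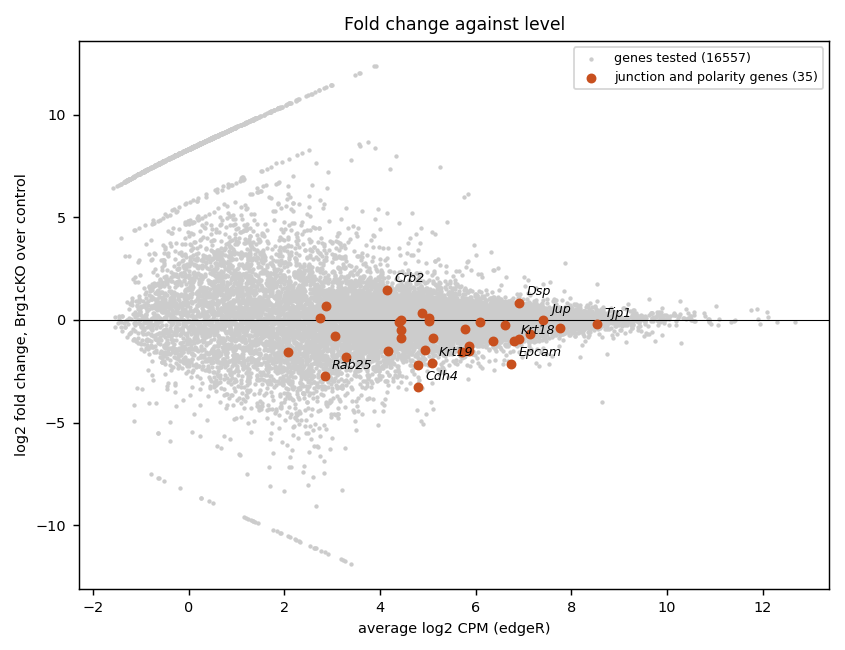
Log2 fold change against average log2 CPM for the 16557 tested genes (grey) and the 35 junction and polarity genes (orange). The orange points lie mostly below 0 with a median of -0.78, and Dsp and Crb2 are the highest of those above 0. The outermost slanted line of grey points at the top and the one at the bottom are genes with 0 reads in both libraries of a group, whose fitted fold change has no fixed size.

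Other genes of the same structures were listed by role. By edgeR, 0 of the 13 further adherens junction genes, 0 of 16 tested of 20 tight junction genes, 0 of 5 tested of 8 desmosome genes and 0 of 15 polarity genes were called in either direction. Median log2 fold changes were -0.19, -0.52, 0.20 and -0.08. Of the 13, 20, 8 and 15 listed, 5, 7, 0 and 6 were lower without overlap, beside 17.8% of all tested genes, and 3, 3, 1 and 5 were higher, beside 26.3%. At an unadjusted p under 0.05 the lower counts were 1, 3, 0 and 3, beside 4.80% of all tested genes, and the higher counts 1, 1, 0 and 1, beside 7.66%.

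The members of these lists with the smallest p divided in direction. Cxadr, a tight junction receptor of epithelia and heart, stood at 159.5 and 123 CPM among controls against 50.7 and 48.9 CPM among Brg1cKO libraries (adjusted p = 0.148, edgeR). Ctnna2, the neural alpha-catenin, stood at 90.8 and 103 against 30.6 and 17.7 CPM (adjusted p = 0.187, edgeR). The polarity proteins Patj (57.5 and 63.6 against 18.1 and 35.7 CPM) and Lin7c (161 and 144 against 92.5 and 103.8 CPM) also had both Brg1cKO libraries under both controls. In the other direction, Cgnl1, a cingulin relative at junctions, stood at 194.5 and 205 against 319 and 303 CPM, and Cdc42, the GTPase of the Par complex and of many other processes, at 162 and 232 against 364 and 314 CPM. Cdh13, a cadherin found on endothelium and heart, had 0 reads in both controls, where 3 reads over the group would be 0.0876 CPM. It stood at 14.8 and 9.72 CPM in the Brg1cKO libraries. Their mean of 12.24 CPM was 139.7-fold that limit, which covers counting error only. Cdh11, a mesenchymal cadherin, stood at 436 and 403 against 299 and 382 CPM. Among the desmosome genes Evpl (10.3 and 12.8 against 20.8 and 19.2 CPM), Ppl (67.6 and 16.1 against 33.7 and 23.8 CPM) and Pkp4 (115 and 111 against 110.1 and 128 CPM) had the smallest p. Ctnnb1 and Ctnna1, ubiquitous catenins of the adherens junction, were picked after their values were seen. They stood at 999 and 894 against 968 and 812 CPM, and at 582 and 473 against 527 and 519 CPM, and both overlapped.

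**Figure D4:**
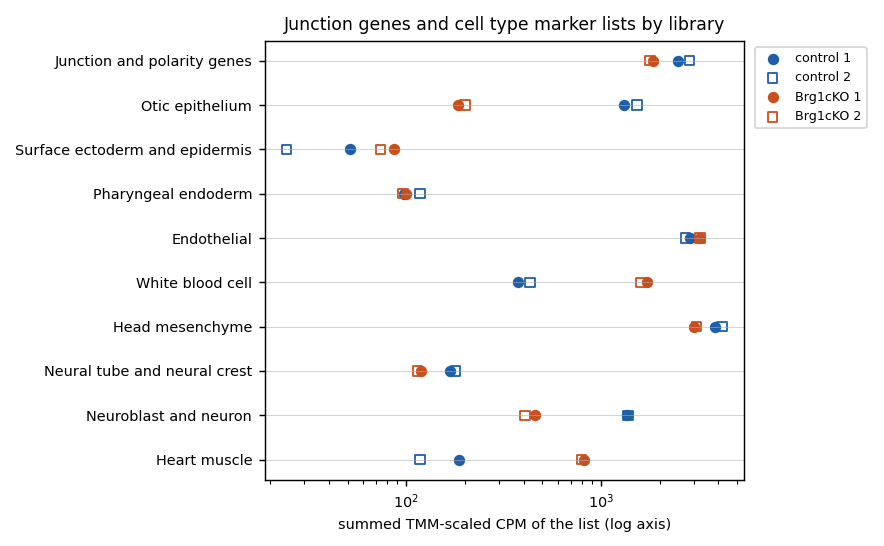
Summed TMM-scaled CPM, on a log axis, of the 35 junction and polarity genes and of each cell type marker list in each library (blue control, orange Brg1cKO, circles replicate 1, squares replicate 2). The junction genes (1850 and 1785 against 2490 and 2845 CPM) and the otic markers (184 and 199.7 against 1306 and 1527 CPM) are lower in the Brg1cKO libraries, and the white blood cell and heart muscle markers are higher.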

How the data were processed

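RNA-seq of otic cells from 2 Control and 2 Brg1cKO samples was analysed from the raw counts per gene that the authors deposited. HISAT2, HTSeq and DESeq2 and the build mm10 are named without roles or versions in the submitters' processing notes, and the sources used here do not give the annotation or the strand setting. The 5 closing lines that name no gene were left out. Their reads by library comprised 21.0%, 21.6%, 14.5% and 15.0% in no feature, and 20.9%, 19.1%, 9.54% and 9.41% not aligned, among others, leaving 48.2%, 49.3%, 64.0% and 63.7% in genes. Identifiers were named by GENCODE M21 (GRCm38), which held 52403 of 52636.

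edgeR 4.0.16 (R 4.3.3) fitted genotype over all 4 libraries, with filterByExpr (minimum count 10, leaving 16557 genes, all 35 included), TMM scaling (factors 0.989 to 1.01), the robust quasi-likelihood test and Benjamini-Hochberg adjustment over all tested genes. A gene was called at an adjusted p under 0.05. The fit was tested on simulated data. With 2 against 2 samples a two-sided exact permutation p cannot go below 0.333, so counts without overlap are descriptions. Alternatives were 13: DESeq2 1.42.0, limma 3.58.1 voom, other scalings, filters and moderation, equal depth, a replicate block and leaving out each library.

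The rule for genes to name took each of the 35 genes, Smarca4, up to 3 genes of smallest p per pathway list, up to 3 most abundant genes per marker list, and promoters of up to 4 members of smallest p with a sequence in RefSeq. The 250 bases before each start were searched. Members and lists were chosen with earlier results of these data known. The pairs of genes for ratios per kilobase were not part of the rule, and no share over other pairs was computed. Where a gene of a pair was already lower without overlap, a ratio without overlap adds little. Intervals and floors cover counting error or the spread between these libraries only. Values of 2 genes that this rule took are not reported here, and both genes remain in the counts and sums of their lists.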

Additional observations from a re-analysis of the deposited data

How the results depend on the processing

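The number of genes called moved with the test while directions mostly held. Against 5 of 16557 genes called in the reported fit, 417 of 25174 were called when every gene with at least 1 count was tested. Of the same 16557 genes, 2422 were called by DESeq2, 54 by limma voom, 70 with the newer edgeR moderation and 140 with the replicate block. Of the 35 junction and polarity genes, 0 were called in the reported fit, and these settings called 7, 15, 1, 1 and 2 in that order. With 1 library left out, 33 to 3519 genes and 0 to 14 of the 35 were called, the most without control replicate 1, and 22 to 27 of the 35 were lower without overlap, against 20 as reported and 22.2% to 34.5% of all tested genes in those settings. The median log2 fold change of the 35 ranged from -0.86 to -0.65. Epcam was called in 8 of the 13 settings, with adjusted p from 6.5e-17 to 0.0844 over all of them. Deviations of same-numbered libraries had a correlation of 0.00516 over 16557 genes. With 2 libraries per group this cannot show whether the numbers pair the libraries, so a pairing remains unknown. In the replicate block, Epcam (0.00363) and Cdh4 (0.0473) were the members with an adjusted p under 0.05 by edgeR.

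Of the 35 genes, 25 kept their direction in all 13 settings, as did 41 of 46 other named genes. For the rest, whose signs turned on the log2 scale as follows, the cause was not tested. Tie1 became -0.02 with RLE scaling, -0.02 with DESeq2 and -0.01 at equal depth. Upper quartile scaling gave Cdh6 0.03, Cldn4 0.00, Jup 0.02 and Foxa1 0.01. Voom gave Spint1 0.10 and Foxa1 0.68, the newer moderation Foxa1 0.10, and equal depth Esrp2 -0.03. The replicate block gave Spint1 0.19, F11r 0.00 and Foxa1 0.51. With 1 library left out, the ranges were Cdh6 -0.14 to 0.13, Spint1 -0.76 to 1.14, Cldn4 -0.50 to 0.48, F11r -0.48 to 0.47, Dsc2 -0.28 to 1.27, Jup -0.13 to 0.09, Pard6b -0.22 to 1.26, Llgl2 -0.23 to 0.47, Krt8 -0.51 to 0.07 and Esrp2 -0.35 to 0.76. Outside the 35 they were Ppl -1.25 to 0.84, Pkp4 -0.03 to 0.19, Krt15 -4.58 to 4.60, Foxa1 -0.86 to 2.05 and Tie1 -0.09 to 0.12. For scarce genes such as Crb3, Dsc2 and Esrp2, intervals of more than 2 log2 units limit what this depth can show.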

Other observations

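Transcription factors tied to epithelial identity did not share one direction. Of 12 listed, 11 were tested and 0 were called by edgeR, where 1 was higher and 0 lower at an unadjusted p under 0.05, beside 7.66% and 4.80% of all tested genes. Grhl2, a Grainyhead-like activator of junction genes, stood at 16.4 and 39.4 CPM among controls against 13.9 and 13.9 CPM among Brg1cKO libraries, both under the lower control. Its relative Grhl3 stood at 1.36 and 9.44 against 18.6 and 13.9 CPM, above both controls. Tfap2a, a factor of surface ectoderm and neural crest, stood at 1.88 and 2.07 against 17.4 and 15.6 CPM (log2 fold change 3.06, adjusted p = 0.368, edgeR).

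Of 9 factors of the mesenchymal transition, all tested, 3 were lower without overlap, beside 17.8% of all tested genes, 3 were higher, beside 26.3%, and 3 overlapped. By edgeR 0 were called, with 1 lower and 1 higher at an unadjusted p under 0.05, beside 4.80% and 7.66% of all tested genes. Zeb2, a repressor of E-cadherin that blood and neural cells also make, stood at 100.6 and 90.8 CPM among controls against 168 and 169.7 CPM among Brg1cKO libraries. Prrx1, of head mesenchyme, stood at 174 and 214 against 121 and 67.1 CPM, and Foxc2, also mesenchymal, at 20.3 and 30.4 against 36.2 and 50.8 CPM. Zeb1 (177 and 102 against 108 and 92.3 CPM) and Snai1 (28 and 7.53 against 15.4 and 9.91 CPM), named after their values were seen, overlapped. The white blood cell markers, at 374 and 431 against 1717 and 1603 CPM, were higher in the same libraries as Zeb2, and their part in it was not tested.

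The further keratins were mostly scarce. Of 7 listed, 3 were tested and 0 called by edgeR, with 0 at an unadjusted p under 0.05 in either direction. Krt7, of simple ducts, stood at 26.7 and 2.76 against 28.9 and 32.4 CPM, with control replicate 2 far under the other libraries. Krt15 and Krt20 did not exceed 5.13 and 1.50 CPM in any library.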
